A study of Mus musculus with 4 samples.

Results

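Accessible chromatin in gene deserts was examined in neurospheres, balls of neural progenitor cells that float in culture, by ATAC-seq, in which a transposase cuts and tags open DNA. The cells came from the hippocampus of P0 C57BL/6 mice and were kept for 7 days with FGF-2 and EGF at 20 ng/ml each. The 2 Fgf13cko cultures had the genotype hGFAPCre+, Fgf13 flox/y, and the 2 CTRL cultures had the genotype hGFAPCre+, Fgf13+/y. Both groups therefore carried the Cre transgene, which the human GFAP promoter drives in glia and neural progenitors, and the labels do not give the share of cells that recombined. Fgf13 is an X-linked gene whose product stays inside the cell and binds sodium channels and microtubules. Whether 1 mouse or 2 gave the pair of cultures in each group is not in the labels, and the spread that the p-values rest on may be partly technical.

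The gene-desert regions are those that the authors' annotation of their merged table placed on chromosomes 1 to 19 or X, called intergenic with no repeat or CpG island, and set over 100 kb from the nearest transcription start site. They numbered 2014 of 29121 regions, or 6.92%. No measured count entered this choice. The distance to the nearest start ranged between 100.04 and 1640 kb, with a median of 192 kb. Of the 2014 regions, 177 lay over 500 kb from a start and 22 over 1000 kb. The start lay downstream of 996 regions and upstream of 1018. The regions had a median width of 739 bp, against 830 bp over all regions on these chromosomes. They were shared out over 1139 nearest genes, of which 671 had a single desert region.

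Gene deserts are long stretches of the genome without protein-coding genes. Many flank genes for developmental transcription factors, and some of their accessible regions are enhancers that act on a start site far away through folding of the chromatin. The nearest gene is only a label of position here, since an enhancer may act on another gene. Accessibility of a culture is an average, so a smaller share of cells with an open region and a less open region in every cell cannot be told apart.

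The name of the class held only in part against a newer annotation. RefSeq tables of GRCm38.p6, the same assembly as the mm10 of the deposited files, covered the chromosomes of 1911 of the regions. Of these 1911 regions, 1505 lay in no RefSeq gene, 325 in a long noncoding RNA (lncRNA) gene, 73 in a protein-coding gene and 8 in a gene of another type. The distance held for protein-coding genes, since 1873 regions (98.0%) were over 100 kb from every protein-coding start, with a median of 265 kb. It did not hold for RefSeq starts of all types, lncRNAs included, since 952 regions (49.8%) were within 100 kb of such a start. The promoter window of a RefSeq transcript, taken as 250 bases before and 50 after its start, overlapped 63 of the regions, 57 at lncRNA starts and 6 at protein-coding starts.

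Of these windows 5 are shown, chosen after the values were seen: those of the pair of start-overlapping regions with the largest rise in Fgf13cko, 1 beside the transcription factor gene Nr2f1, and 2 that start protein-coding genes of neuronal adhesion and guidance. Each is the RefSeq sequence on GRCm38.p6, 5′ to 3′ on the strand of the transcript. Capitals mark letters of a motif searched on both strands.
Gm51502, lncRNA, chr7:136047820-136048119, plus strand: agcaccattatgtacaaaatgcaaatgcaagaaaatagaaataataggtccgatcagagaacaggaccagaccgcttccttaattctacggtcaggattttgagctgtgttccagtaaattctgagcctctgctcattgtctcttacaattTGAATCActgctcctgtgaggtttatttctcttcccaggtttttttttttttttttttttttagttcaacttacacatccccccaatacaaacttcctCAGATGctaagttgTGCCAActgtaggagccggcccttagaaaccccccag
Gm42262, lncRNA, chr4:22836213-22836512, minus strand: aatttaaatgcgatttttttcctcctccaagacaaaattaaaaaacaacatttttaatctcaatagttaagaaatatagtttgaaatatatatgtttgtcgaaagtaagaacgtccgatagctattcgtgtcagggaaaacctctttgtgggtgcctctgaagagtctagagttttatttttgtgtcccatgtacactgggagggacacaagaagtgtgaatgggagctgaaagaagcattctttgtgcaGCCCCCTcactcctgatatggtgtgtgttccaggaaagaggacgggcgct
Gm31946, lncRNA, chr13:78426735-78427034, plus strand: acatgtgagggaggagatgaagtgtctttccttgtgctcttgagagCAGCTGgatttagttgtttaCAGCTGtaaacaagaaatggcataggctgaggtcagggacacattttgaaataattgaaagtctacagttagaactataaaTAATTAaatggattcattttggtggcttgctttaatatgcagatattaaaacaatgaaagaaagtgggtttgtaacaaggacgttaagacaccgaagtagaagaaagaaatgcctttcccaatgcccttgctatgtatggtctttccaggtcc
Fat3, protein-coding, chr9:16502005-16502304, minus strand: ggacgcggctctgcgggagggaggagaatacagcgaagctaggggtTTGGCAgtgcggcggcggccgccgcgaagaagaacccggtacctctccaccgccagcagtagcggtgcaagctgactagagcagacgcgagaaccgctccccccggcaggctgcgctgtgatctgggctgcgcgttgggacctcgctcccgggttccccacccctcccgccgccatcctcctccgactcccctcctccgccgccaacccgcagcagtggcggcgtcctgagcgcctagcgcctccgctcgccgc
Robo2, protein-coding, chr16:75447244-75447543, minus strand: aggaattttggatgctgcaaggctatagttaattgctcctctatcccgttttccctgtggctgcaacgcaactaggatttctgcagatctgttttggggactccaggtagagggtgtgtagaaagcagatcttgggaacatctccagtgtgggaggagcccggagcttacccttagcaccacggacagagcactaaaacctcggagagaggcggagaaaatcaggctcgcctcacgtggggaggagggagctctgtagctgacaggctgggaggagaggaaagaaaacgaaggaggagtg
The window of Gm51502 holds an AP-1 motif, an NFI motif and an E-box. That of Gm42262 holds a CTCF core, that of Gm31946 holds 2 E-boxes and a homeodomain motif, that of Fat3 an NFI motif, and that of Robo2 none of those searched. The Gm42262 and Gm31946 windows lie only partly within their regions. The region at the Gm31946 start begins at base 78426804, so the leading E-box lies outside it and the other crosses its edge. The Fat3 and Robo2 windows lie in regions assigned to starts 123 and 139 kb away, the first a Fat3 start and the second that of Lipi, a lipase gene.

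The 63 regions held 74 such windows, whose letters were set beside those of all 32851 windows. The AP-1 motif TGANTCA stood in 12.2% of the desert windows and 7.81% of all windows. The NFI motif TTGGCA was in 18.9% of the desert windows and 14.1% of all. An E-box, CAGCTG or CAGATG, was in 37.8% of the desert windows and 30.6% of all. The homeodomain motif TAATTA was in 13.5% of the desert windows and 5.29% of all. The TEAD motif GGAATG was in 12.2% of the desert windows and 14.7% of all, and the SOX motif ACAATGG in 2.70% of the desert windows and 3.66% of all. The CRE motif TGACGTCA was in none of the desert windows and 1.79% of all, and the CTCF core AGGNGGC in 25.7% of the desert windows and 29.4% of all. These shares rest on few windows, some of which overlap, and a match describes letters and not a bound site.

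The 4 libraries differed in ways that bear on the comparison. Regions on these chromosomes held 2.55 and 2.62 M tags in Fgf13cko 1 and 2, against 2.78 and 3.24 M in CTRL 1 and 2. Mitochondrial regions took 38.5% and 31.5% of all region tags in Fgf13cko, against 67.7% and 68.4% in CTRL. A desert region held a median of 39.25 and 51 tags in Fgf13cko, against 47 and 51.5 in CTRL. The 2 Fgf13cko libraries were further apart than the 2 CTRL libraries, with a median absolute log2 difference per desert region of 0.42 between the Fgf13cko libraries and 0.22 between the CTRL libraries. The log2 counts of desert regions spread most widely in Fgf13cko 1 (SD 1.48), against 1.04 in Fgf13cko 2, 0.89 in CTRL 1 and 0.98 in CTRL 2. The part of these differences in the results was not tested. A start-site region was present for 9 of 10 neural progenitor markers, all but Msi1, and for 1 of 6 markers each of microglia (P2ry12), endothelial cells and pericytes (Pdgfrb) and meningeal fibroblasts (Pdgfra). The summed normalised counts of the progenitor markers were 2554 and 1983 in Fgf13cko, against 2040 and 2371 in CTRL. Those of P2ry12 were 11.5 and 21.6 in Fgf13cko, against 38.7 and 27.1 in CTRL. Pdgfrb held 20.1 and 20.6 in Fgf13cko, against 28.9 and 34.2 in CTRL, and Pdgfra 149.6 and 124.4 in Fgf13cko, against 117.5 and 123.8 in CTRL. None of these start regions passed the threshold.

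Every desert region had a peak in each of the 4 deposited peak lists, so a region open in only 1 group is outside the count table. Even so, 13 and 10 desert regions held no tags in Fgf13cko 1 and 2, and 6 and 7 in CTRL 1 and 2. In 5 regions no library held a tag. The authors' own fold enrichment of the peaks in desert regions over background had a median of 5.39 and 5.08 in the Fgf13cko lists and of 4.70 and 4.81 in the CTRL lists. Over all peaks farther than 100 kb from a RefSeq start, the Fgf13cko lists held 10042 and 8045, against 4914 and 6570 in the CTRL lists. The count table held 35.5% and 44.2% of these peaks of the Fgf13cko lists, against 73.2% and 54.7% of those of the CTRL lists. Each list was called separately, and the lists held 64879 and 54303 peaks in all for Fgf13cko, against 37931 and 47062 for CTRL. The table as a whole thus held a smaller share of such distant peaks called in Fgf13cko than of those called in CTRL, and these peaks include more than those in the desert regions analysed.

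Gene-desert regions changed mainly toward higher accessibility in Fgf13cko. Of the 1992 regions with enough tags to test, 204 rose (10.2%) and 49 fell (2.46%) at an adjusted p below 0.05 in edgeR's quasi-likelihood test. Over all 28801 tested regions, 6.2% rose and 1.64% fell, or 7.84% in either direction. Intergenic regions nearer to a start had 8.89% rising and 2.25% falling, and intronic regions 8.77% and 1.85%, so desert regions stood close to the other distal classes. Promoter regions stood apart, with 1.16% rising and 0.92% falling. The median log2 fold change, Fgf13cko over CTRL, was 0.08 over the desert regions and -0.00 over all tested regions. The remaining 1739 tested desert regions did not pass the threshold, and 22 others, with at most 26.5 tags in any library, were too low to test.

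The regions that rose had a median log2 fold change of 1.27, and 160 of the 204 rose by more than 2-fold. Their normalised count had a median of 139 in Fgf13cko and 55.4 in CTRL. The regions that fell had a median log2 fold change of -1.42, with median counts of 41.8 in Fgf13cko and 100.02 in CTRL. In all 253 regions that changed, both Fgf13cko counts lay on one side of both CTRL counts. Among all tested desert regions, both Fgf13cko counts lay above both CTRL counts in 34.8% and below them in 22.99%, against 28.5% and 25.2% over all tested regions. The counts of calls depended on single libraries. Without CTRL 1, 57 desert regions rose and 8 fell, against 1.44% and 0.24% of all tested regions. Without CTRL 2, 19 rose and 3 fell, against 0.667% and 0.111% of all. Without Fgf13cko 1, 434 rose and 161 fell, against 14.3% and 9.96% of all, and without Fgf13cko 2, 400 rose and 433 fell, against 17.7% and 17.3% of all. DESeq2 called 141 rises and 31 falls, against 5.36% and 1.44% of all regions to which it gave an adjusted p. The excess of rises over falls was therefore absent when Fgf13cko 1 stood alone against the controls. The median log2 fold change was then -0.07.

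Desert regions as a group took a mean of 5.15% ± 0.45 of the tags on these chromosomes in Fgf13cko and 4.56% ± 0.046 in CTRL (SD, n = 2 each). The single values were 4.83% and 5.47% in Fgf13cko, against 4.60% and 4.53% in CTRL. Both Fgf13cko libraries lay above both CTRL libraries, by 0.59 percentage points on average. This difference was 0.27 without Fgf13cko 2, 0.90 without Fgf13cko 1 and 0.0995 when regions with a repeat or CpG annotation were included. The exact permutation test over libraries, two-sided, gave p = 0.33, which is the smallest that 2 against 2 can give.

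**Figure D1:**
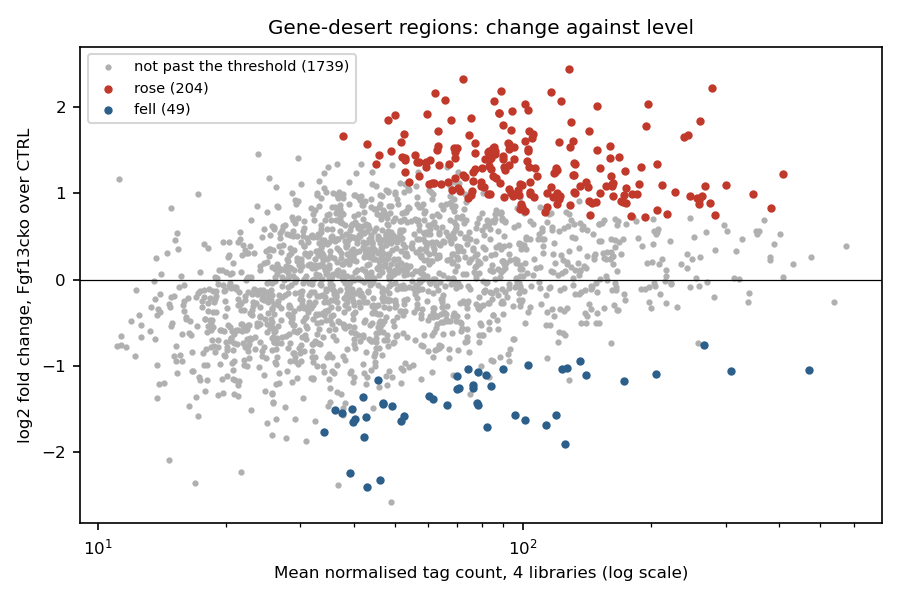
Each point is 1 of the 1992 tested gene-desert regions, with its mean normalised tag count over 4 libraries on the x axis (log scale) and its log2 fold change, Fgf13cko over CTRL, on the y axis. The 204 regions that rose (red) extend to a log2 fold change of 2.44 and the 49 that fell (blue) to -2.40, and no region at a mean count of 30 or less passed the threshold.

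The change depended on how open a region was. Of 437 desert regions with a mean normalised count of 30 or less, none passed the threshold in either direction in edgeR or in DESeq2. DESeq2 gave an adjusted p to only 22100 of the 28801 regions. How many of the 437 were among these was not counted, so its lack of calls here is no separate result. At an unadjusted p below 0.05 in edgeR, 1 of the 437 regions rose and 15 fell. Their median log2 fold change was -0.33, but -0.00 without Fgf13cko 1, -0.94 without Fgf13cko 2 (1 rise and 157 falls), -0.01 with a loess offset and 0.65 with scaling by library size only. With the loess offset, 2 of these regions rose and 3 fell. The other classes had values near these at this level. Of 2925 intronic and nearer intergenic regions none rose and 1 fell, with a median of -0.29, and of 289 promoter regions none passed, with a median of -0.34. Of the 340 regions with a mean count over 100, 100 rose (29.4%) and 14 fell, with a median of 0.43. At that level, intronic and nearer intergenic regions had 20.3% rising with a median of 0.25, and promoter regions 1.32% rising with a median of -0.08. The 100 rises at this level became 26 without CTRL 1 and 11 without CTRL 2, and 179 without Fgf13cko 2. A low count limits what the test can call. At the low end, the 5th percentile of the normalised counts of desert regions was 6.30 in Fgf13cko 1 and 19.0 in Fgf13cko 2, against 21.1 in CTRL 1 and 17.3 in CTRL 2, and its part in the lower median was not tested.

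**Figure D2:**
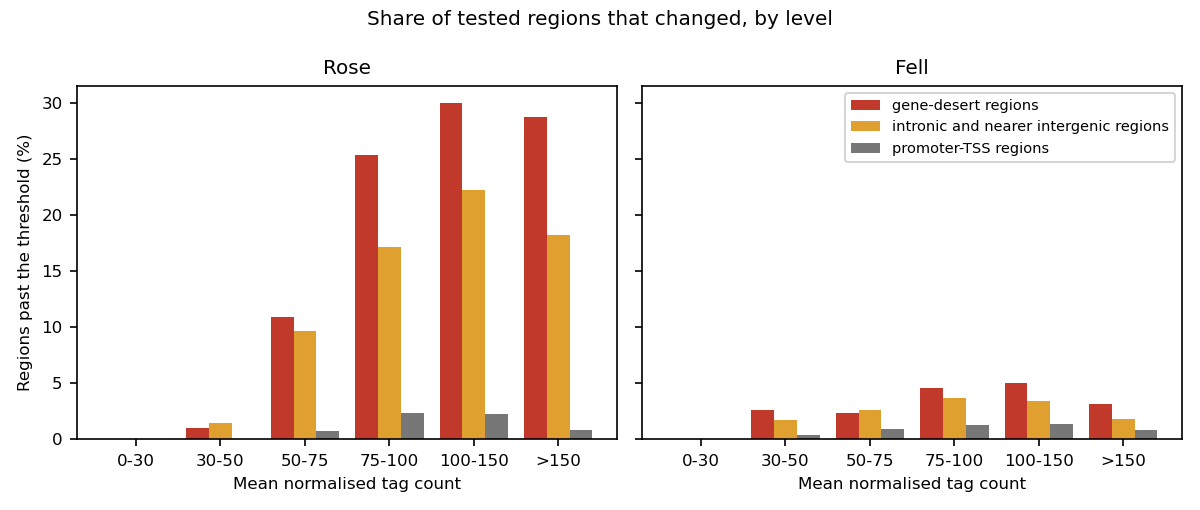
Bars give the percentage of tested regions that rose (left) or fell (right) at an adjusted p below 0.05, by class of mean normalised tag count, for gene-desert regions, intronic and nearer intergenic regions, and promoter regions. Rising desert regions reach 30% between counts of 100 and 150, against 22.3% of intronic and nearer intergenic regions and 2.22% of promoter regions.

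The share of regions that rose was similar at all distances from the start. Between 100 and 200 kb 10.4% of tested regions rose, between 200 and 300 kb 10.5%, between 300 and 500 kb 9.17% and between 500 and 1000 kb 10.5%. Beyond 1000 kb 3 of 21 rose. Regions upstream of their nearest start had 10.4% rising and those downstream 10.1%. By RefSeq context, 9.41% of regions in no gene rose, 11.7% of those in a lncRNA gene, and 10 of 69 of those in a protein-coding gene. Regions over 100 kb from every RefSeq start, lncRNAs included, had 9.59% rising and 2.63% falling, close to the 10.0% and 2.49% of all 1889 tested regions looked up. The 3 regions just inside the rule's limit of 100 kb were assigned to Aqp9, Tnfrsf11a and Stmnd1, with log2 fold changes of -0.40, 0.15 and 0.14, and the 3 just outside it were assigned to Tmem100, Mmadhc and Mir680-3, with 2.36, 0.04 and -2.34.

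The regions with the largest rises and falls were chosen among those that passed the threshold with no overlap between the groups, so that separation is no result of its own for them. The largest rise was in a region 158 kb downstream of the start of Mllt3, a subunit of a complex that promotes transcript elongation. The region, chr4:87648274-87649244, lies within the lncRNA gene Gm34180 and held normalised counts of 229.8 and 204.5 in Fgf13cko, against 35.3 and 44.0 in CTRL. The log2 fold change was 2.44 (SE 0.22, adjusted p = 0.00384, edgeR).

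The third largest rise was in one of the most open desert regions, at chr7:136046483-136048110, 221 kb upstream of the noncoding RNA gene C030029H02Rik. It held 464.1 and 455.9 in Fgf13cko, against 96.5 and 100.6 in CTRL. Each pair agreed closely, with a log2 fold change of 2.22 (SE 0.19, adjusted p = 0.00384, edgeR). This region covers 291 of the 300 bases of the Gm51502 start window printed above.

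A region 161 kb upstream of Calb1, which encodes the calcium-binding protein calbindin of hippocampal granule cells, held 79.1 and 123.3 in Fgf13cko, against 22.03 and 23.7 in CTRL (chr4:15719849-15720562, log2 fold change 2.16, SE 0.31). A region 631 kb upstream of Auts2, a regulator of transcription in developing neurons, held 107.2 and 105.9 in Fgf13cko, against 28.9 and 21.1 in CTRL (chr5:133173176-133173950, 2.08, SE 0.27). A region 103 kb upstream of Lsamp, an adhesion protein of limbic neurons, held 179.9 and 97.0 in Fgf13cko, against 38.7 and 27.5 in CTRL (chr16:39881204-39882314, 2.07, SE 0.34). The adjusted p of edgeR was at most 0.0104 in the 3, and the 2 Fgf13cko values were furthest apart at Lsamp.

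The other 5 of the 10 largest rises were assigned to Gm33340, 3100003L05Rik, Slc41a2 (a magnesium transporter), Gm6260 and Plppr1 (a membrane protein of neuronal processes). Their log2 fold changes lay between 2.04 and 2.32. The call of all 10 held in each alternative tried, except that those at Auts2 and Lsamp were lost without CTRL 2 (adjusted p = 0.0501 and 0.0802, edgeR).

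**Figure D3:**
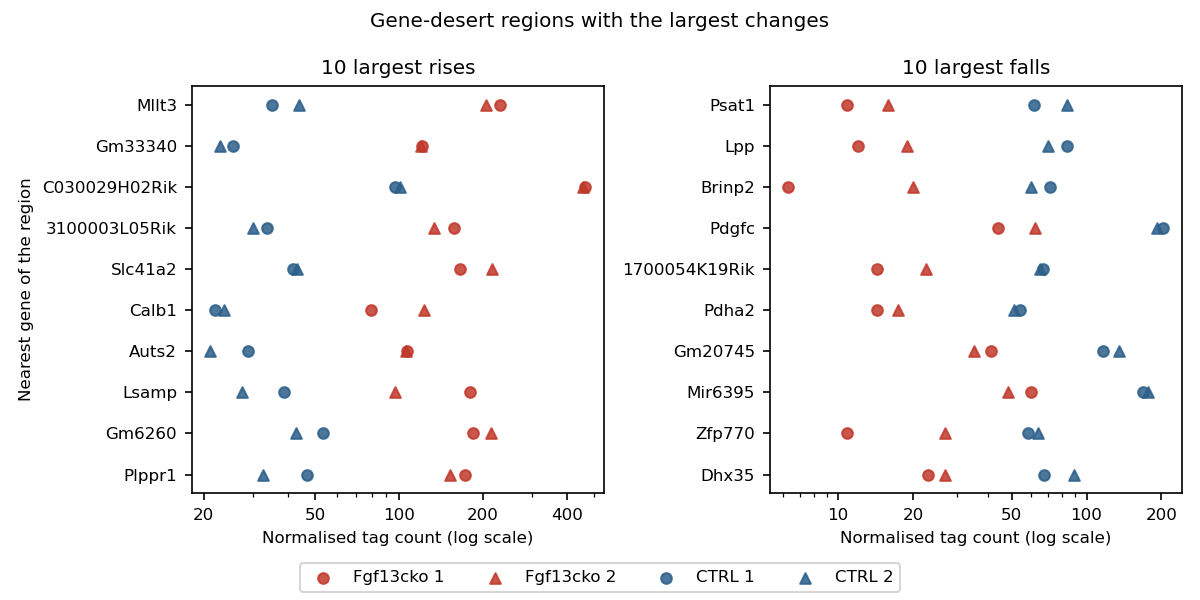
Normalised tag counts (x axis, log scale) of the 10 gene-desert regions with the largest rise (left) and the 10 with the largest fall (right), named by nearest gene, with 1 mark per library. The Fgf13cko marks (red) lie apart from the CTRL marks (blue) because the regions were chosen for separated groups, and the gap shows the size of the change, as at C030029H02Rik with 464.1 and 455.9 in Fgf13cko against 96.5 and 100.6 in CTRL.

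The largest fall was in a weakly open region 232 kb downstream of Psat1, an enzyme of serine synthesis. The region, chr19:15692326-15692973, held 10.9 and 15.8 in Fgf13cko, against 61.7 and 83.7 in CTRL, with a log2 fold change of -2.40 (SE 0.36, adjusted p = 0.00760, edgeR). Falls near Lpp, a focal adhesion protein, and Brinp2, a protein of neural cells that restrains the cell cycle, were of like size (-2.32 and -2.24), and all had counts of 20.0 or fewer in Fgf13cko.

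A more open region that fell lay 180 kb downstream of Pdgfc, a growth factor of the platelet-derived family. The region, chr3:81215519-81216344, held 44.1 and 62.2 in Fgf13cko, against 203.7 and 192.3 in CTRL (log2 fold change -1.90, SE 0.23, adjusted p = 0.00423, edgeR). A region 220 kb upstream of Mir6395, a microRNA gene, held 59.6 and 48.5 in Fgf13cko, against 168.4 and 177.5 in CTRL (chr8:34385826-34386691, -1.68, SE 0.21). These 2 were the falls among the 10 largest that kept the call in every alternative tried. The other 5 of the 10 were assigned to 1700054K19Rik, Pdha2, Gm20745, Zfp770 and Dhx35, with log2 fold changes between -1.82 and -1.64. Of the 10, 6 lost the call without CTRL 1, 8 without CTRL 2 and 5 with scaling by library size only. DESeq2 kept the call of 8, lost that at Zfp770 and gave no adjusted p to the region at Pdha2. Scaling by library size only moved the median log2 fold change over all tested regions to 0.97.

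Among the 5 most open desert regions 1 changed, a region 115 kb upstream of Bdnf, the neurotrophin that supports growth and synapses of hippocampal neurons. This region, chr2:109558994-109560056, held 349.5 and 264.6 in Fgf13cko, against 621.4 and 647.1 in CTRL. Both Fgf13cko values lay well below both CTRL values, with a log2 fold change of -1.05 (SE 0.21, adjusted p = 0.0204, edgeR). The call was lost without CTRL 1 (adjusted p = 0.243), without CTRL 2 (0.309) and with scaling by library size only (log2 fold change -0.09, adjusted p = 0.519). The log2 fold change stayed between -1.29 and -0.87 in the other alternatives. Scaling by library size only uses all region tags, mitochondrial ones included, and moved the median log2 fold change over all tested regions to 0.97.

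The other 4 of these regions did not pass the threshold. The most open of all, 823 kb upstream of the ephrin receptor gene Epha5, held 719.1 and 585.0 in Fgf13cko, against 459.8 and 534.2 in CTRL (log2 fold change 0.39, adjusted p = 0.311, edgeR). A region near Cd180, a surface receptor of B cells, had a log2 fold change of -0.26, one near Mir6390 of 0.26, and one near Mir7224, which holds a start of the galactosyltransferase gene B3galt1, of 0.18.

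The region farthest from a start lay 1640 kb upstream of Lrrtm1, an organiser of excitatory synapses. It held 269.9 and 256.1 in Fgf13cko, against 148.4 and 151.7 in CTRL, and rose (chr6:75602433-75603224, log2 fold change 0.81, SE 0.18, adjusted p = 0.0279, edgeR), a call that was lost without CTRL 1 and without CTRL 2. The next farthest, near the guidance ligand gene Efna5 and Gm15679, did not pass the threshold (log2 fold changes 0.61 and -0.42). Nor did the 3 widest regions, near the atypical cadherin gene Fat3 (2822 bp), Mir7224 (2610 bp) and the DNA repair gene Ercc6l2 (2459 bp), whose log2 fold changes were 0.53, 0.18 and -0.20. The Fat3 region, which contains the whole start window printed above, held 577.0 and 373.7 in Fgf13cko, against 309.5 and 347.4 in CTRL. The Robo2 window lies in a region with 45.3 and 46.4 in Fgf13cko, against 29.9 and 35.5 in CTRL (log2 fold change 0.50, adjusted p = 0.413, edgeR).

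Of the 63 regions at a RefSeq start, 9 rose (14.3%) and none fell at the threshold in edgeR (2 fell at an unadjusted p below 0.05). Of all tested desert regions looked up in RefSeq 10.0% rose and 2.49% fell, and of all tested regions 6.2% and 1.64%. The 63 were also more open, with a median mean normalised count of 70.2, against 48.1 over the desert regions looked up. Each of the 9 starts belongs to a lncRNA gene, as do those of 57 of the 63. Besides Gm51502 they included Gm42262, whose region held 154.7 and 150.7 in Fgf13cko, against 48.5 and 51.6 in CTRL (chr4:22835445-22836324, log2 fold change 1.60, SE 0.20, adjusted p = 0.00459, edgeR). The count of 9 became 3 without CTRL 1 and 1 without CTRL 2. It became 17 rising and 8 falling without Fgf13cko 2, and DESeq2 called 6 rising and none falling.

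Transcription factor genes that deserts flank were examined through a list of 88 genes, 37 of which were nearest to 85 desert regions, all tested. Of the 85, 9 rose (10.6%) and 2 fell, close to the share of all desert regions, and their median log2 fold change was 0.02 (-0.22 without Fgf13cko 2). The rises were near Meis1, Sox6, Nr2f2, Nr2f1 (2 regions), Nfia (2 regions) and Sall3 (2 regions), and the falls near Jun, a subunit of AP-1, and Nr4a2, a nuclear receptor of dopamine neurons.

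The region 163 kb upstream of Nfia, a factor of astrocyte formation, held 171.3 and 194.5 in Fgf13cko, against 65.6 and 55.4 in CTRL (chr4:97418253-97419147, log2 fold change 1.59, SE 0.20, adjusted p = 0.00470, edgeR). The region at 437 kb from Meis1, a homeodomain factor of progenitor cells, held 178.2 and 161.3 in Fgf13cko, against 63.7 and 74.8 in CTRL (chr11:18580919-18582704, 1.30, SE 0.20). Both had no overlap between the groups, as had every desert region that passed the threshold. The region at Jun held 29.2 and 20.6 in Fgf13cko, against 69.5 and 68.5 in CTRL (chr4:95185249-95186103, -1.44, SE 0.31, adjusted p = 0.0265, edgeR).

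Around Nr2f1, which patterns the cortex and hippocampus, 2 of 7 desert regions rose. The one at 229 kb, where the Gm31946 start lies, held 213.2 and 193.4 in Fgf13cko, against 84.2 and 117.5 in CTRL (log2 fold change 1.01, SE 0.21, adjusted p = 0.0252, edgeR). The one at 499 kb held 88.2 and 67.5 in Fgf13cko, against 31.3 and 20.3 in CTRL (1.60, SE 0.33). The most open of the 7, at 739 kb, held 378.8 and 329.9 in Fgf13cko, against 258.5 and 301.8 in CTRL and did not pass (adjusted p = 0.348, edgeR). Around Nr2f2, the paralog of Nr2f1, 1 of 5 rose, and it alone of the 5 had a positive log2 fold change (median -0.46). No region passed the threshold among the 9 at Klf4, a stem cell factor, the 9 at Maf, a bZIP factor, or the 4 at Bach2, a transcriptional repressor. All 4 at Bach2 had positive log2 fold changes, between 0.49 and 0.99, and 3 of them had an unadjusted p below 0.05 in edgeR. Without Fgf13cko 1, 2 of the 4 rose, and without Fgf13cko 2, 3 rose. Without CTRL 1 the list had 1 rise and no fall, without CTRL 2 no call, and without Fgf13cko 2 19 rises and 19 falls. DESeq2 called 7 rises and no fall.

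Adhesion and guidance genes were examined through a list of 89 genes, 33 of which were nearest to 69 desert regions. Of the 69 regions 9 rose (13.0%) and none fell in edgeR (2 fell at an unadjusted p below 0.05). Of all tested desert regions 10.2% rose and 2.46% fell, and of all tested regions 6.2% and 1.64%. DESeq2 called 8 rises and no fall. The median log2 fold change was -0.04, with 0.27 without Fgf13cko 1 and -0.38 without Fgf13cko 2. The rises were near genes for homophilic adhesion proteins (Lsamp, Chl1, Cdh13, Pcdh18), guidance cues of the semaphorin family (Sema3a, Sema6d), and synaptic or axonal recognition proteins (Adgrl2, Lrrtm1, Tenm4).

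The region 133 kb upstream of Sema3a, a secreted repellent of axons, held 135.8 and 192.4 in Fgf13cko, against 44.6 and 38.5 in CTRL (chr5:13262943-13263784, log2 fold change 1.97, SE 0.25, adjusted p = 0.00461, edgeR). It is one of the 73 desert regions that RefSeq places within a protein-coding gene. The region 245 kb upstream of Tenm4, a teneurin, was the most open of the 9, with 608.0 and 537.6 in Fgf13cko, against 235.0 and 254.4 in CTRL (chr7:95925922-95927067, 1.22, SE 0.19, adjusted p = 0.00867, edgeR). The region at Chl1, an L1-family adhesion protein, held 254.4 and 184.5 in Fgf13cko, against 71.0 and 62.6 in CTRL (chr6:103343604-103345382, 1.72, SE 0.23). In all 3 both Fgf13cko values exceeded both CTRL values, as they did in every desert region that rose, so this is no result of its own.

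Most regions around the genes with several desert regions did not pass the threshold. At Adgrl2, a latrophilin, 1 of 7 rose, at Pcdh18 and Lrrtm1 1 of 4 each, and none of 4 at the neural adhesion gene Ncam1 or of 3 at the ephrin gene Efnb2. The log2 fold change was positive in 4 of 7 at Adgrl2, 2 of 4 at Pcdh18 and 1 of 4 each at Lrrtm1 and Ncam1. At Efnb2 all 3 were negative, between -0.60 and -0.39. The 9 rises of the list became 5 without CTRL 1 and 2 without CTRL 2, and without Fgf13cko 2 there were 17 rises and 19 falls.

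The gene nearest to the most desert regions was Tbl1xr1, a subunit of a nuclear receptor corepressor complex, with 14 regions between 124 and 719 kb upstream of its start. Of the 14, 3 rose and 1 fell. The rises stood close to one another, at 252, 267 and 278 kb. The region at 252 kb held 146.1 and 166.0 in Fgf13cko, against 79.8 and 90.0 in CTRL (chr3:21823995-21824783, log2 fold change 0.88, SE 0.20, adjusted p = 0.0294, edgeR). The region at 278 kb held 103.7 and 87.5 in Fgf13cko, against 46.5 and 44.4 in CTRL (chr3:21797947-21798781, 1.07, SE 0.24). Between them, at 259 kb, a weak region held 26.9 and 49.0 in Fgf13cko, against 40.6 and 33.4 in CTRL, where the groups overlapped. The fall, at 597 kb, held 28.7 and 27.4 in Fgf13cko, against 63.2 and 63.4 in CTRL (chr3:21478976-21479767, -1.17, SE 0.29, adjusted p = 0.0469, edgeR). No region of the 14 was called without CTRL 1, without CTRL 2 or in DESeq2.

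**Figure D4:**
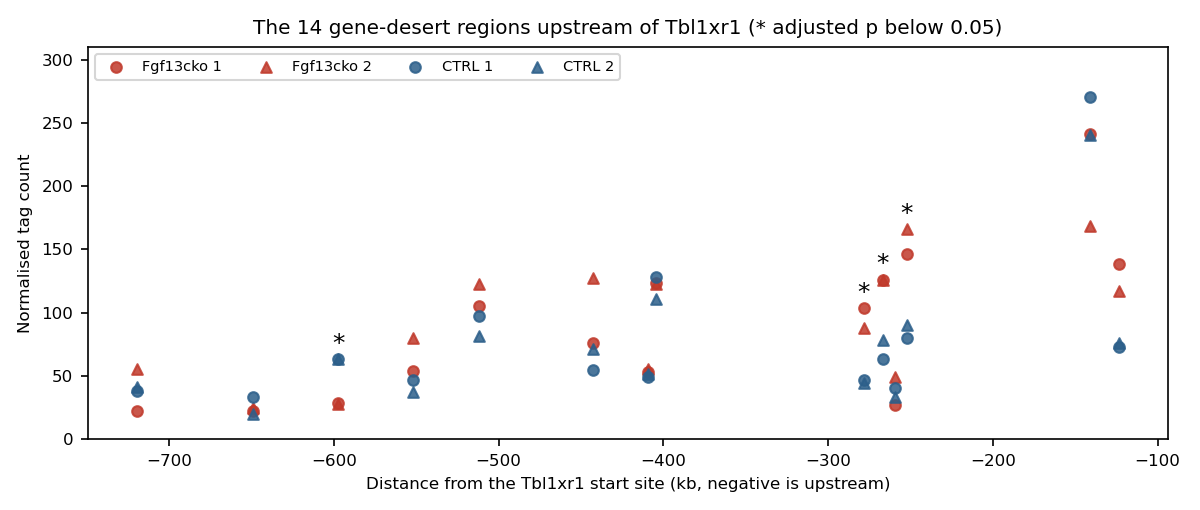
Normalised tag counts of the 14 gene-desert regions upstream of Tbl1xr1 in each library, by distance from its start site in kb (negative values are upstream). Stars mark the 4 regions at an adjusted p below 0.05: Fgf13cko (red) lies above CTRL (blue) in the 3 at 252, 267 and 278 kb and below it at 597 kb.

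The measured changes of neighbouring desert regions were only weakly correlated. With a gap of at most 50 kb, 1212 regions stood alone and 802 fell into 332 groups, the largest of 5 regions. Over the 465 pairs of tested neighbours in a group, the log2 fold changes correlated at r = 0.10, as a description of pairs that share all 4 libraries. Error in the single fold changes lowers such an r, and its part was not tested. Of all tested desert regions 10.2% rose and 2.46% fell, and of all tested regions 6.2% and 1.64%. Beside these shares, the 9 groups of 5 regions, such as those at Ankrd55, Kazn, Maf and Bcor, held 1 rise and 1 fall in all. Their median log2 fold changes ranged between -0.84 near Rplp1 and Tle3 and 0.60 near Kazn.

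Chromosome 7 had the largest share of rising desert regions. Of its 80 regions 21 rose (26.3%) and 1 fell, and on no other chromosome did more than 14.6% rise. Beyond 120 Mb of chromosome 7, a limit that was not planned in advance, 10 of 25 rose, with a median log2 fold change of 0.75. All tested regions of any class in that stretch also stood higher, with 12.6% rising and a median of 0.40, so the shift there was not confined to desert regions. Without chromosome 7, 183 of 1912 desert regions rose (9.57%) and 48 fell. On chromosome X, which carries Fgf13, none of 46 tested desert regions rose and 2 fell in edgeR, beside 5 rises and 5 falls at an unadjusted p below 0.05, and none was assigned to Fgf13. Over all 694 tested regions of chromosome X, 2.45% rose and 0.72% fell. The 21 rises on chromosome 7 became 5 without CTRL 1 and 3 without CTRL 2, and there were 30 without Fgf13cko 1 and 30 without Fgf13cko 2. Desert regions of chromosome X had no rise and 2 falls in DESeq2, 7 rises without Fgf13cko 1 and 8 without Fgf13cko 2.

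**Figure D5:**
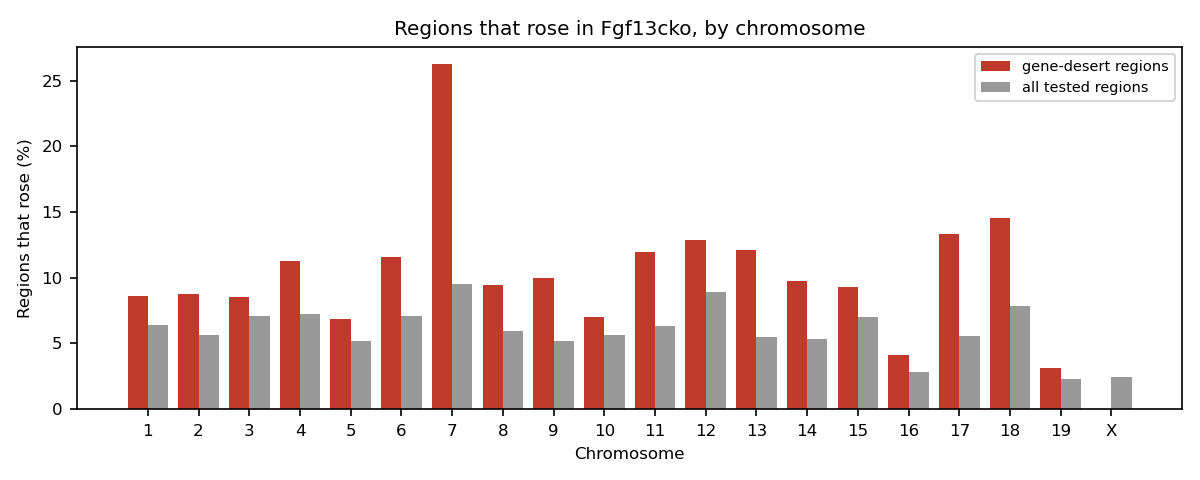
Bars give the percentage of tested regions that rose at an adjusted p below 0.05 on each chromosome, for gene-desert regions (red) and all tested regions (grey). Chromosome 7 stands out at 26.3% of its desert regions, against 9.53% of all its tested regions, and chromosome X has none of its 46 desert regions.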

How the data were processed

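ATAC-seq was measured in 4 libraries, 2 per group, grouped and numbered by their titles. The authors deposited estimated counts, raw HOMER tag counts per merged region on mm10 per the file headers, without normalisation. In the deposited peak lists, the score, the fold enrichment (a ratio) and the −log10 p and −log10 q of each peak are the authors' own values; only the fold enrichment is printed and the −log10 q was tabulated. HOMER, MACS2, Bowtie2, Picard and DESeq2 are named without versions per the submitters' processing notes. How reads were shifted for the transposase, and duplicates treated, is not given in the sources used here.

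The estimated counts were rounded and fitted over the whole table with edgeR 4.0.16 in R 4.3.3 (glmQLFit robust, glmQLFTest, two-sided, TMM scaling, filterByExpr, no covariates, Benjamini-Hochberg over 28801 regions, threshold 0.05), and a normalised count is the deposited count over its library's relative effective size. DESeq2 1.42.0 was an alternative. Counting error and the spread of 2 libraries limit precision, and the common biological coefficient of variation was 0.191. Regions, lists and tests were chosen with earlier results of these data known.

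Named regions were the 10 largest rises and falls that passed with separated groups, the 5 most open, the 3 farthest, the 3 widest, and those of up to 5 genes per list with the most regions (ties by name). The lists' regions that passed and the 14 regions at Tbl1xr1 were added after values were seen. Motif and sequence displays had been planned for the regions themselves; without a genome they were made on RefSeq start windows, and chromosome 18 was not used there. Replicate numbers were not used as pairs in the main fit. The deviations of same-numbered libraries correlated at r = -0.23 over 1992 desert regions. With 2 libraries per group this value cannot show whether the libraries were paired, since crossing the numbers reverses its sign.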

Additional observations from a re-analysis of the deposited data

How the results depend on the processing

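Against 204 rises and 49 falls, scaling by library size only gave 1046 rises and 7 falls. It moved the median log2 fold change of desert regions to 1.06, beside 0.97 over all regions. With it, 61.3% of all tested regions rose. This scaling uses all region tags, mitochondrial ones included. The mitochondrial share was 38.5% and 31.5% in Fgf13cko 1 and 2, against 67.7% and 68.4% in CTRL 1 and 2. A loess offset gave 97 falls. DESeq2 gave 31 falls, beside 141 rises. A limit of 50 kb gave 336 rises and 84 falls, and one of 200 kb gave 96 and 19, since they hold more and fewer regions. Leaving out 1 library gave between 19 and 434 rises, between 3 and 433 falls, and medians between -0.07 and 0.18, with a lone library assumed to vary like the other group; the cause was not tested. All 65 calls without CTRL 1 and all 22 without CTRL 2 were among the 253 of the full fit. With the replicate number as a block, 221 rose and 73 fell; with the numbers crossed, added after seeing the data, 271 rose and 99 fell. The other filters and roundings, and leaving out mitochondrial regions, gave between 192 and 216 rises and between 50 and 55 falls. The difference in the share of tags, 0.59 percentage points, ranged between 0.27 and 0.90 when 1 library was left out and was 0.0995 with repeat and CpG annotations included; no setting could pass the exact test. No named call changed sign, and the median was negative only without Fgf13cko 2. Of the 437 desert regions with a mean normalised count of 30 or less, none passed in the reported fit, 2 rose and 3 fell with the loess offset, 28 rose with library size only, and 8 fell with the numbers crossed.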

Other observations

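Of genes on no list, 3 with many desert regions were chosen after the values were seen, among 1139 nearest genes. Beside Map3k7, a kinase of TGF-beta signalling, 3 of 7 desert regions rose and none fell, where 10.2% of all tested desert regions and 6.2% of all tested regions rose, while beside Zfp608, a zinc finger gene, none of 11 passed the threshold, and none of 7 beside Nova1, a neuronal splicing factor. The 3 rises at Map3k7 were lost without CTRL 1 and without CTRL 2, and DESeq2 called 1. At an unadjusted p below 0.05 in edgeR there were 1 rise and 1 fall at Zfp608 and 1 rise at Nova1. The 306 other intergenic regions over 100 kb from a start that carry a repeat or CpG annotation brought the rises to 233 and the falls to 60 when added.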
